A study of Homo sapiens with 24 samples.

Results

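The alpha-like globin genes HBA1, HBA2 and HBZ and the beta-like globin genes HBE1, HBG1 and HBG2 were followed in K562, an established human cell line that came from a leukaemia and has erythroid traits. The genes were listed by symbol and matched to the Ensembl identifiers of the expression table, which held all 6 of them among 12285 genes. The near-identical copies HBA1 and HBA2, and HBG1 and HBG2, were also read as sums. The cells had been sorted by size with centrifugal elutriation, and RNA was sequenced every 2 h from 0 h to 46 h, with 1 library at each of the 24 time points. There were no replicates, so each level is that of a single library, and errors come from the scatter of a gene around its fitted time course. In the study, 16 h and 18 h were singled out as irregular, and 32 h as mildly so. The study proposes that such irregular libraries likely arise from a technical step, not from biology, and it did not find the step. Their origin was not tested here.

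Haemoglobin is a tetramer of alpha-like and beta-like chains, each holding a heme group, and its genes lie in an alpha-like and a beta-like cluster on separate chromosomes. Both clusters are switched during development. HBZ and HBE1 encode the embryonic zeta and epsilon chains, and HBG1 and HBG2 the fetal gamma chains. HBA1 and HBA2 encode the alpha chain of fetal and adult haemoglobin. K562 is known for making embryonic and fetal rather than adult beta-like chains, and is used as a model of those genes.

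How far the copies can be told apart by reads depends on their sequence, so short coding stretches of the GENCODE 29 transcripts are shown. The coding sequences of HBA1 and HBA2, 429 nt with the stop codon, were identical over their whole length, and so were their 5′ UTRs. Their 3′ UTRs had 19 mismatches and 1 gap. Of all 50-nt windows of the HBA1 transcript, 81.6% were also present in that of HBA2, and none was present in that of HBZ. The last 30 coding bases are printed for the alpha-like genes, with capitals at the 11 bases where HBZ differs from the other pair.
HBA1: AGcAcCgtGctgaccTCCaaAtaccgTtAa
HBA2: AGcAcCgtGctgaccTCCaaAtaccgTtAa
HBZ: TCcTcTgtCctgaccGAGaaGtaccgCtGa
The coding sequences of HBG1 and HBG2, 444 nt, had 2 mismatches, C227T and C410G, with the base of HBG1 first and positions counted from the A of the start codon. The 29 bases around the second of them are printed, with the differing base in capitals.
HBG1: gaagatggtgactgCagtggccagtgccc
HBG2: gaagatggtgactgGagtggccagtgccc
The level of each copy is therefore uncertain where reads fell in the shared stretches, and how such reads were divided is not given in the sources used here. HBE1 and HBG2 also have annotated transcripts that overlap.

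The globins were among the most abundant transcripts of the table. FPKM, the unit of the table, is scaled to transcript length, so levels can be compared between genes. HBG2 ranked 2 and HBE1 ranked 5 of all genes by mean FPKM, HBG1 ranked 47, HBA1 ranked 69, HBZ ranked 190 and HBA2 ranked 250. Over the 22 time points left once 16 h and 18 h were set aside, HBG2 had a median of 2457 FPKM and ranged from 1064 at 32 h to 3141 at 10 h. HBE1 had a median of 1908 FPKM and ranged from 1450 at 32 h to 2160 at 10 h. The ranges of these 2 genes overlapped, and HBE1 was the steadier, with a coefficient of variation of 9.11% over the 22 time points against 21.9% for HBG2. HBG1 had a median of 891 FPKM and ranged from 363 at 32 h to 1209 at 10 h.

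Among the alpha-like genes, HBA1 had the highest level at each of the 22 time points. Its median was 591 FPKM, and it ranged from 326 at 22 h to 1663 at 32 h. HBZ had a median of 317 FPKM and ranged from 208 at 46 h to 557 at 10 h. HBA2 had a median of 285 FPKM and ranged from 195 at 22 h to 428 at 10 h. HBZ and HBA2, neighbours in this order, overlapped over most of their range, and HBZ was above HBA2 at every time point but 46 h, where the ratio was 0.942. By comparison HBB, which encodes the adult beta chain, stayed between 1.38 and 4.02 FPKM at these 22 time points and made up at most 0.0871% of the summed FPKM of HBB and the beta-like members.

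**Figure D1:**
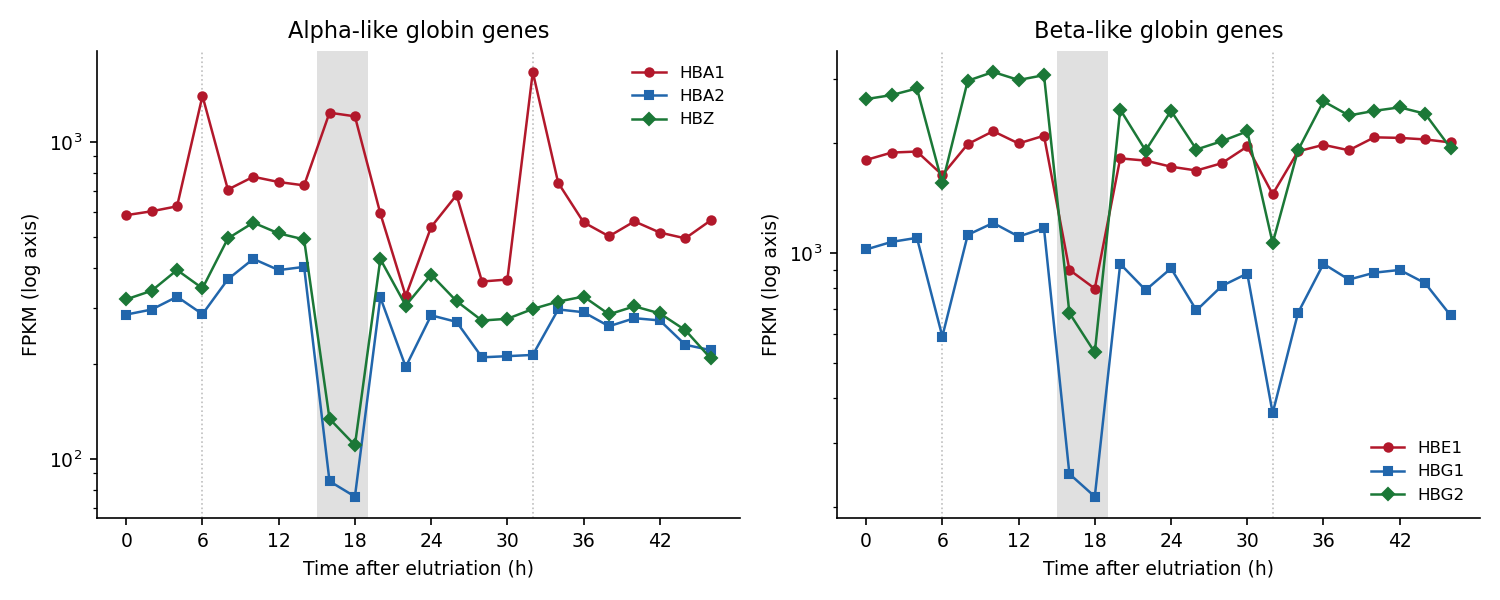
Level of each globin gene in FPKM (log axis) against time after elutriation, with 1 library at each point; the grey band marks 16 h and 18 h and dotted lines mark 6 h and 32 h. HBA2, HBZ, HBE1, HBG1 and HBG2 have their lowest values in the band, while HBA1 stands at 1237 and 1205 FPKM there and has its highest values at 6 h and 32 h.

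Libraries that stand apart touch every result below. The FPKM of the table summed to 566247 and 591309 in the libraries of 16 h and 18 h and to no more than 520382 in any other, and they listed 102 and 115 genes at 0, where the others listed at most 58. MALAT1, a long RNA kept in the nucleus, was at 11073 and 12319 FPKM, against at most 1593. Of 10 markers of the erythroid lineage, all 10 were in the table, and their levels summed to 1364 and 1345 FPKM in those libraries and to between 945 and 1266 in the others.

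At 16 h and 18 h, 5 of the 6 globin genes were far below their course and HBA1 was above it. HBA2 was at 85.1 FPKM at 16 h and 76.1 at 18 h, between 404 at 14 h and 323 at 20 h. HBZ was at 134 and 110 FPKM, between 493 and 427. HBE1 was at 899 and 798 FPKM, between 2099 and 1819. For these genes both values lay below all 22 others, which was also so for the gamma genes. HBG1 was at 247 and 214 FPKM, between 1169 and 933. HBG2 was at 684 and 533 FPKM, between 3079 and 2476, and its rank in the table, which was 1 at 0 h, was 75 and 118. HBA1 alone went the other way, with 1237 and 1205 FPKM between 730 at 14 h and 595 at 20 h, and its rank of 88 at 0 h became 24 and 28. Its values at these hours were below those at 6 h and 32 h and above the other 20.

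The size of the shift was estimated with limma on log2(FPKM + 1), as the coefficient of a term shared by 16 h and 18 h beside a straight line and a 24 h cosine and sine, and p-values were adjusted over 12255 genes and sums. The deviation was −2.39 ± 0.24 (SE) for HBG2 and −2.35 ± 0.25 for HBG1, with adjusted p of 7.9e-09 and 2.2e-08. It was −2.16 ± 0.15 for HBA2, −1.82 ± 0.16 for HBZ and −1.29 ± 0.10 for HBE1, with adjusted p of 4.1e-11, 8.2e-10 and 4.0e-10. HBG2 was thus left with 0.191 of its fitted level and HBE1 with 0.409. Thus 5 of 6 members fell, against 26.0% of all features tested. Among all features, 66 had a deviation as low as that of HBG2 or lower, and 449 one as low as that of HBE1 or lower. A technical change of these libraries, fewer cells that make a globin and less of its RNA in each cell cannot be told apart here. The samples are bulk, with 1 library at each time point.

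HBA1 rose by 1.05 ± 0.38, or 2.07-fold, with an adjusted p of 0.018, in a direction in which 41.7% of all features passed. This call was lost without 16 h, when the deviation was 1.12 and the adjusted p 0.059, and without 18 h, when they were 0.99 and 0.105. It was also lost with each time point scaled to its upper quartile, with 0.79 and an adjusted p of 0.068. The sum of HBA1 and HBA2 deviated by 0.49 ± 0.30 (adjusted p = 0.15) and did not pass, while the sum of HBG1 and HBG2 fell by 2.38 ± 0.24 (adjusted p = 1.0e-08). Scaling moved the median deviation of all features from 0.15 to −0.08, and with the upper quartile 3486 features were higher and 4522 lower, against 5115 and 3181 as deposited. Relative to that median HBA1 stood at 0.91 as deposited and at 0.87 with upper-quartile scaling. The falls of the other 5 members passed under every alternative that had a test.

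**Figure D2:**
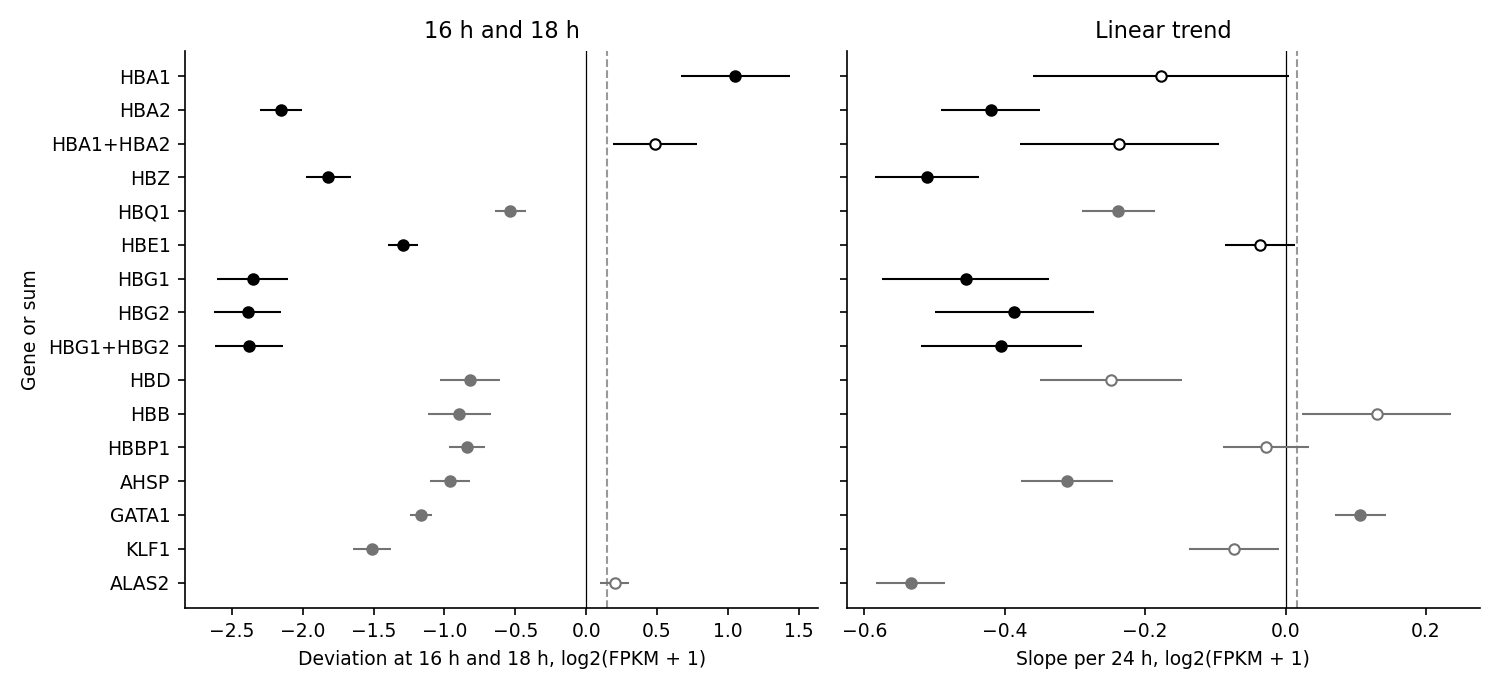
Deviation at 16 h and 18 h (left) and slope per 24 h (right), both on the log2(FPKM + 1) scale, for the members and their sums (black) and related genes (grey). Points are limma coefficients with bars of 1 standard error, filled where the adjusted p was 0.05 or below, and the dashed line is the median of all features tested; HBA1 stands to the right of zero at 16 h and 18 h, and the other globins to the left.

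Because transcripts of different length and base composition deviated differently, the members were set beside their classes. Genes with a median annotated transcript length under 1000 nt, the class of all 6 members, had a median deviation of −0.16, and 37.8% of 2055 such genes were lower. The alpha-like genes have a GC content of 64.3% to 65.2%, and in the class of short genes with 55% GC or more the median was −0.65 and the 95% range of single genes ran from −2.69 to 1.22. HBA2, HBZ and HBA1 all lay within that range, with HBA1 near its upper end. The beta-like genes have 49.8% to 51.4% GC. In the class from 45% to 55% the median was −0.14 and the range was −2.08 to 1.65, so that HBG1 and HBG2 lay below it and HBE1 within it. The part of length and base composition in the members' deviations was not tested.

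The copies of each pair behaved differently towards each other. The ratio of HBA1 to HBA2 was 14.5 at 16 h and 15.8 at 18 h. It reached 4.88 at 6 h and 7.81 at 32 h, and lay between 1.67 and 2.57 at the remaining 20 time points, around a median of 1.92. The ratio of HBG2 to HBG1 was 2.77 at 16 h and 2.49 at 18 h, inside the range of 2.42 to 2.93 at the other 22 time points. HBA1 made up 85.0% and 86.6% of the alpha-like sum in the libraries of 16 h and 18 h, 68.9% in that of 6 h and 76.5% in that of 32 h. Elsewhere its share was 39.5% to 56.9%. The alpha copies, identical in coding sequence, thus parted at 4 time points, at 3 of which the gamma copies were inside the range of their ratio elsewhere and at 32 h at its highest, 2.93.

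These differences were compared by an exact permutation test, two-sided, over all 276 choices of 2 of the 24 time points, for 4 pairs of members chosen after their values were seen. The test treats time points as exchangeable, and its smallest possible p is 0.0036. The log2 difference HBA1 − HBA2 was 3.91 at 16 h and 18 h and 1.13 ± 0.52 (SD, n = 22) elsewhere (exact p = 0.0036, Benjamini-Hochberg adjusted 0.014). The difference HBG2 − HBG1 was 1.39 against 1.42 ± 0.08 (SD, n = 22), with an exact p of 0.56, adjusted 0.56. HBE1 fell less than the gamma sum, with a log2 difference of 0.02 against −0.75 ± 0.28 (SD, n = 22; exact p = 0.0072, adjusted 0.014). HBZ fell less than HBA2, with 0.59 against 0.27 ± 0.17 (SD, n = 22; exact p = 0.014, adjusted 0.019). The ratio of HBZ to HBA2 was 1.57 at 16 h and 1.45 at 18 h, and it reached 1.56 at 22 h as well.

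The balance of the chains on the RNA level moved with these changes. The ratio of the alpha-like to the beta-like sum was 0.795 at 16 h and 0.900 at 18 h. At 32 h it was 0.755 and at 6 h 0.537, and at the other 20 time points it ranged from 0.171 to 0.301 with a median of 0.218. The beta-like sum at 16 h and 18 h was 1830 and 1546 FPKM, against 2878 to 6510 elsewhere. The alpha-like sum was 1456 and 1391 FPKM, within its range of 826 to 2173. HBE1 made up 49.1% and 51.7% of the beta-like sum, 43.3% at 6 h and 50.4% at 32 h, and 32.6% to 43.5% of it at the 20 time points that also leave out 6 h and 32 h. The 6 genes together held 0.580% and 0.497% of the summed FPKM of the table in these libraries, and from 0.999% to 1.65% of it in the other 22.

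**Figure D3:**
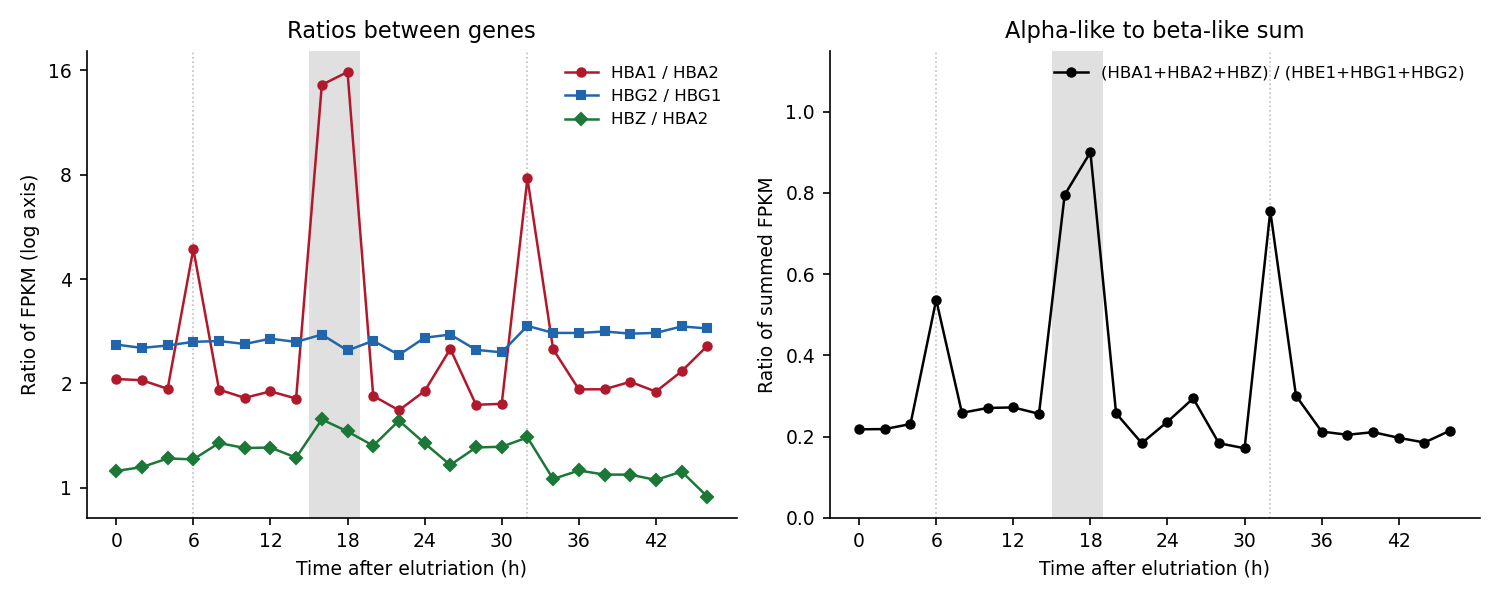
Left, ratios of FPKM between genes of a pair or cluster (log axis); right, ratio of the summed FPKM of the alpha-like to that of the beta-like genes; both against time, with 1 library at each point, a grey band at 16 h and 18 h and dotted lines at 6 h and 32 h. The HBA1 to HBA2 and alpha-like to beta-like ratios spike at 6 h, 16 h, 18 h and 32 h, and the HBG2 to HBG1 ratio stays between 2.42 and 2.93.

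At 6 h and 32 h HBA1 stood above its neighbours and the beta-like members below theirs, the directions they had at 16 h and 18 h. HBA1 was at 1398 FPKM at 6 h, between 627 at 4 h and 708 at 8 h, and at 1663 FPKM at 32 h, between 368 at 30 h and 743 at 34 h. Its distance from the mean of its neighbours was 1.07 at 6 h and 1.67 at 32 h on the log2(FPKM + 1) scale. HBG1 was 0.91 below its neighbours at 6 h and 1.09 below at 32 h, and HBG2 was 0.90 and 0.93 below. HBE1 was lower by 0.25 and 0.41. These distances are single values without a test. Of all genes, 0.571% were 2-fold higher than their neighbours at 6 h and 0.449% at 32 h, as HBA1 was at both, and 1.01% were 2-fold lower at 32 h, as HBG1 was. HBZ and HBA2 stood nearer to their neighbours, with distances of −0.36 and −0.27 at 6 h and 0.01 and −0.23 at 32 h. The libraries of 6 h and 32 h had MALAT1 at 1329 and 1593 FPKM, above its median of 841 over the 22, and listed 35 and 58 genes at 0, where the other 20 listed 4 to 27. The part of this in the members' distances was not tested.

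The alpha genes also shared a low at 22 h, 28 h and 30 h. HBA1 was at 326, 363 and 368 FPKM, its 3 lowest values, and HBA2 at 195, 209 and 211, its 3 lowest among the 22. The gamma genes and HBZ were also below their medians over the 22 at these hours, though above their lowest values. HBG1 was at 791, 812 and 878 FPKM, HBG2 at 1911, 2028 and 2158, and HBZ at 305, 273 and 277. HBE1 was at 1793, 1764 and 1961 FPKM at these hours, within its usual range. The FPKM of the table summed to 503962, 500802 and 520382 in these libraries, above the median of 479877 over the 22, and the part of this in the low was not tested.

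Over 46 h the levels of HBZ, HBA2 and the gamma genes fell, while HBE1 and HBA1 did not pass the test. The slope per 24 h on the log2(FPKM + 1) scale was −0.51 ± 0.07 (SE) for HBZ, with an adjusted p of 1.8e-05, and −0.42 ± 0.07 for HBA2, with 9.1e-05. It was −0.46 ± 0.12 for HBG1 (adjusted p = 0.0054) and −0.39 ± 0.11 for HBG2 (adjusted p = 0.011). HBE1 had a slope of −0.04 ± 0.05 (adjusted p = 0.61) and HBA1 one of −0.18 ± 0.18 (adjusted p = 0.48). Thus 4 of 6 members fell and none rose, against 12.6% and 19.6% of all features. The sum of the gamma genes fell by 0.40 ± 0.11 (adjusted p = 0.0091), and that of HBA1 and HBA2 had a slope of −0.24 ± 0.14 (adjusted p = 0.21), which passed without 6 h and 32 h, at −0.32 with an adjusted p of 0.019. The slopes rest on the term for 16 h and 18 h: without it no member's slope passed, and that of HBG2 was 0.011. With a period of 20 h the gamma slopes did not pass, at −0.30 for HBG1 and −0.22 for HBG2, with adjusted p of 0.056 and 0.15.

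The same drift was read by setting each hour of the second 24 h against that of the first. HBZ and HBA2 were lower at 9 of 10 matched hours, with median log2 differences of −0.61 and −0.47. HBG1 was lower at 9 and HBG2 at 8 of 10, and HBE1 at 7. Of all genes, 8.18% were lower at 9 or more hours and 17.8% at 8 or more. HBZ had a mean of 419 FPKM over those hours of the first 24 h and 293 over the second, and the hour at which it was not lower was 24 h, at 381 FPKM against 319 at 0 h. HBE1 had means of 1908 and 1845 FPKM.

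**Figure D4:**
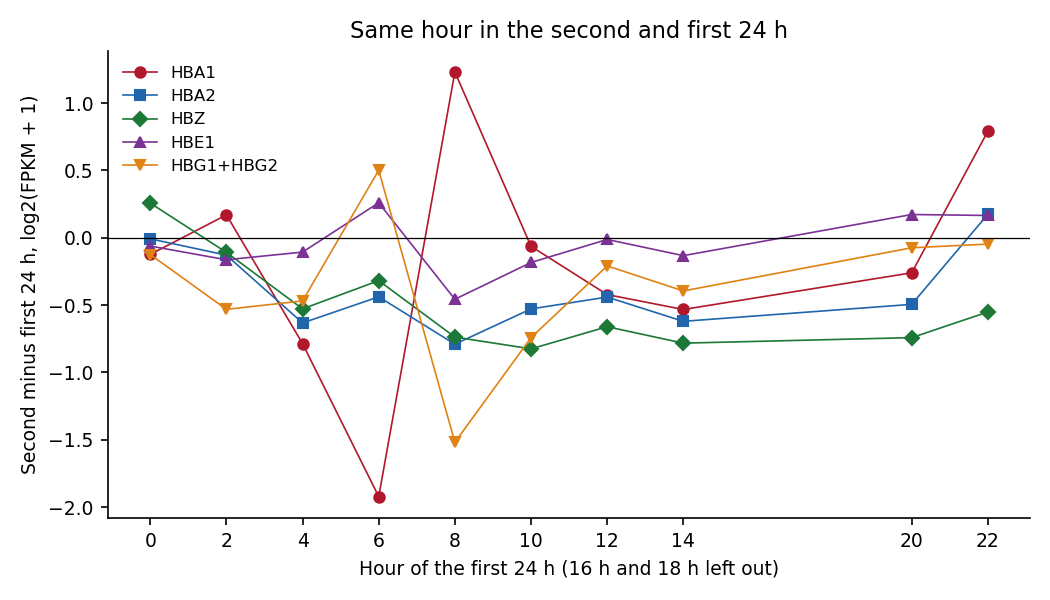
Difference between the same hour of the second and the first 24 h on the log2(FPKM + 1) scale for the members and the gamma sum, with 1 library behind each level. HBZ and HBA2 lie below zero at 9 of 10 hours and HBE1 stays within −0.46 and 0.26, while HBA1 and the gamma sum swing in opposite directions at 6 h and 8 h, where a library of 6 h or 32 h enters.

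Over the same 46 h the tested markers of other lineages all rose, a direction in which 19.6% of all features passed. Of the 10 erythroid markers, 4 fell and 1 rose, where 12.6% and 19.6% of all features did. ITGA2B, a platelet integrin and the only one of 6 megakaryocyte markers in the table, rose by 1.16 ± 0.12 per 24 h, from 2.43 FPKM at 0 h to 9.71 at 46 h. LYZ, the only one of 6 granulocyte and monocyte markers, rose by 0.85 ± 0.05, from 10.7 FPKM at 2 h to 28.2 at 44 h. The lymphoid marker CD3D rose by 0.57 ± 0.08 and the fibroblast marker COL1A2 by 0.38 ± 0.07, and their summed lists held 2 and 1 of 5 genes. The part of these genes in the drift of the globins was not tested.

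A 24 h component, tested by limma with an F test on the cosine and sine, passed for HBA2 and HBZ. Its amplitude on the log2(FPKM + 1) scale was 0.30 ± 0.05 (SE) for HBA2, with a peak at 14.4 h and an adjusted p of 0.0070, and 0.28 ± 0.06 for HBZ, with a peak at 13.9 h and an adjusted p of 0.011. Thus 2 of 6 members passed, against 16.2% of all features. HBG2 had an amplitude of 0.34 ± 0.10 (adjusted p = 0.056), HBG1 of 0.32 ± 0.10 and HBE1 of 0.13 ± 0.04 (adjusted p = 0.088 for both), and HBA1 of 0.32 ± 0.14 (adjusted p = 0.17). For these genes the call depended on how the time course was read. With a period of 20 h neither HBA2 nor HBZ passed, with adjusted p of 0.30 and 0.19. The rank statistic JTK over 100000 orderings gave adjusted p of 0.25 and 0.37. It was run on all 24 time points without a term for 16 h and 18 h, where both genes have their lowest values. In the first 24 h HBZ was highest at 10 h, with 557 FPKM, and in the second it was highest at 24 h, with 381 FPKM.

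The members' courses were most alike within the gamma pair. Over the 22 time points without 16 h and 18 h, Pearson's r of log2(FPKM + 1) was 0.98 between HBG1 and HBG2 and 0.89 between HBA2 and HBZ. Between HBA1 and HBA2 it was 0.35, and 0.87 without 6 h and 32 h (20 time points). Those hours have the highest ratios of HBA1 to HBA2 among the 22, so leaving them out favours a higher r. For HBE1 Pearson's r was 0.73 with HBG1, 0.78 with HBG2 and 0.43 with HBA2. Without 6 h and 32 h these were 0.39, 0.51 and 0.39. All points share a library within each time point, so these values are descriptions.

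Genes outside the family were ranked by likeness among the 7163 genes averaging 10 FPKM or more. The gamma sum was most like RPL7A, a ribosomal protein gene, with an r of 0.97 over 22 time points, followed by RPS2P5, RPL10, NDUFB11 and RPS27A, the last at 0.95. HBZ was most like STOML2 (0.96), PDCD2, PRPF19, NME1 and MRPL20. HBE1 was most like TMEM14C (0.86), GSTO1, ENSA, CAMLG and a gene with the identifier ENSG00000237550. The sum of HBA1 and HBA2 was most like HMGA1, an architectural chromatin protein gene, with 0.97, followed by AKT1S1, GADD45GIP1, PFN1 and TAGLN2. These lists were unsteady: with Spearman's rho, 2 of the 5 genes remained for the HBA sum, HBZ and the gamma sum and 0 for HBE1, and with all 24 time points 2 remained for the HBA sum, 1 for HBZ, 0 for HBE1 and 3 for the gamma sum.

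Of the other globin genes, 4 of 8 listed were in the table, and all 4 were lower at 16 h and 18 h, where 26.0% of all features were. Of genes under 1000 nt, a class that holds these 4 as well, 37.8% were lower. On the log2(FPKM + 1) scale the 4 globin genes fell by less than the 5 members that fell. HBB fell by 0.89 ± 0.22 (adjusted p = 0.0012), HBBP1, a beta-like pseudogene, by 0.84 ± 0.13 (adjusted p = 4.5e-06) and HBD, which encodes the minor adult delta chain, by 0.82 ± 0.21 (adjusted p = 0.0017). HBQ1, the alpha-like theta gene, fell by 0.53 ± 0.11 (adjusted p = 0.00015). Their median was −0.83, beside 0.15 for all features. HBB lay at 1.44 and 0.95 FPKM at these hours, between 3.98 at 14 h and 2.99 at 20 h. At such levels the log2(FPKM + 1) scale understates a change, so HBB cannot be ordered against the members by it. Over 46 h HBQ1 fell by 0.24 ± 0.05 per 24 h (adjusted p = 0.0012).

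Of 13 heme synthesis and chaperone genes, 3 fell and 2 rose at 16 h and 18 h, where 26.0% and 41.7% of all features did, with a median of −0.11. AHSP, the chaperone of free alpha chains, fell by 0.96 ± 0.14 (adjusted p = 2.1e-06), from 57.7 FPKM at 14 h to 23.5 and 30.7. PPOX and UROD, enzymes of heme synthesis, fell by 0.89 and 0.67. FECH, which inserts the iron, rose by 0.71, and EIF2AK1, the heme-regulated kinase of translation, by 0.23. ALAS2, the erythroid first enzyme of the pathway, had a deviation of 0.20 ± 0.10 (adjusted p = 0.084). Over 46 h, 7 of the 13 fell and none rose, where 12.6% and 19.6% of all features did, with a median slope of −0.12 beside 0.02 for all features. ALAS2 fell by 0.53 ± 0.05 per 24 h (adjusted p = 3.9e-08), from 68.5 FPKM at 0 h to 39.9 at 46 h, AHSP by 0.31 ± 0.07 (adjusted p = 0.0010), ABCB10, a mitochondrial transporter, by 0.26 and CPOX by 0.20. A 24 h component passed in 3 of the 13, ALAD, UROS and UROD, and in 16.2% of all features.

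Of 28 tested regulators of the globin clusters, 14 rose and 3 fell at 16 h and 18 h, where 41.7% and 26.0% of all features did, with a median of 0.29. KLF1, the erythroid factor that activates HBB, fell by 1.51 ± 0.13 (adjusted p = 1.4e-09), from 93.3 FPKM at 14 h to 32.7 and 24.2. GATA1, the master factor of the lineage, fell by 1.17 ± 0.08 (adjusted p = 2.5e-11), and the deacetylase HDAC1 by 0.32. MYB, a factor of progenitors, rose by 1.55 ± 0.17 (adjusted p = 3.5e-08), MBD2, a reader of methylated DNA, by 1.49, RUNX1 by 1.36 and ATRX, a chromatin remodeller, by 1.18. Over 46 h NFE2, MYB and GATA1 rose, by 0.29, 0.25 and 0.11 per 24 h, and EHMT2, a histone methyltransferase, fell by 0.22, while KLF1 had a slope of −0.07 ± 0.06 (adjusted p = 0.40). A 24 h component passed in 12 of the 28 and in 16.2% of all features, with amplitudes of 0.39 for LMO2, 0.28 for ZFPM1 and 0.19 for KLF1 and CHD4. BCL11A, a repressor of the gamma genes, was not analysed here.

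The genes beside the alpha-like cluster gave a mixed picture at 16 h and 18 h, with 3 of 7 lower and 1 higher, where 26.0% and 41.7% of all features were, and a median of −0.27. MPG, a DNA glycosylase gene, fell by 0.997 ± 0.106 (adjusted p = 2.2e-08), POLR3K by 0.72 and FAM234A by 0.37, and SNRNP25 rose by 0.35 (adjusted p = 0.037). NPRL3, whose introns hold the distal enhancers of the cluster, had a deviation of 0.06 ± 0.17 (adjusted p = 0.75), at 34.2 and 27.7 FPKM between 33.8 and 27.9. Over 46 h POLR3K fell by 0.20 (adjusted p = 0.0014), and a 24 h component passed in NPRL3 and SNRNP25.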

How the data were processed

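RNA of K562 cells was sequenced at 24 time points, 1 library each, and samples were assigned to time points from their labels. The authors aligned reads with STAR and quantified and normalized them with Cufflinks and Cuffnorm, and deposited FPKM values; GRCh37 is named in the submitters' processing notes, and versions are not given in the sources used here. A second table, which the authors deposited as cleaned, holds a score per gene and time point. It served as an alternative only. Depth is unknown, so no counting error is given.

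Levels were analysed as log2(FPKM + 1) for the 12253 genes averaging 1 FPKM or more and 2 sums, with limma 3.58.1 (R 4.3.3): a term for 16 h and 18 h, a line and a 24 h cosine and sine, with 19 residual degrees of freedom and a prior variance that follows intensity. P-values were Benjamini-Hochberg adjusted over all 12255 features, with a threshold of 0.05. They measure scatter around the fitted course, not between cultures. The fit was tested on simulated data with independent scatter, without disturbances shared within a library or correlation between time points. Exact permutation tests and the JTK statistic, at a fixed period of 24 h, were coded with numpy 2.4.6. The permutation p-values were adjusted with scipy 1.17.1. GENCODE 29 (GRCh38) gave names, transcript lengths, GC content and sequences, and no coordinates are printed because the builds differ. Beside the members, the text names from each list genes past the threshold, at most 4 of the largest per direction, with GATA1, KLF1, ALAS2 and AHSP in any case, and the 5 genes most like each member or sum; markers, MALAT1, HBB, HBD and NPRL3 levels were added. Members and lists were chosen with earlier results of these data known. No column was left unused. Of the heme list, 1 gene is not reported here and is left out of its counts.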

Additional observations from a re-analysis of the deposited data

How the results depend on the processing

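Of 374 values recomputed under alternative settings, 334 were counted as unchanged, for a gene or sum by its direction and side of the threshold. Counts of genes were held to a looser limit. Those lower at 16 h and 18 h counted as unchanged at 4522 with upper-quartile scaling, against 3181 as deposited. Some settings, such as the filters on mean FPKM, left a member's coefficient the same by design, and an amplitude has no direction. The tally is therefore no measure of robustness. For HBA1 the deviation at 16 h and 18 h did not pass with upper-quartile scaling (0.79), without 16 h (1.12) or without 18 h (0.99). The slopes without a term for 16 h and 18 h did not pass, at −0.061 for HBA2, −0.21 for HBZ, −0.064 for HBG1 and −0.0088 for the gamma sum, and reversed to 0.011 for HBG2 and 0.18 for HBE1, which passed in neither fit. With a period of 20 h that of HBE1 was 0.026, again without passing. At that period the slopes did not pass at −0.30 for HBG1, −0.22 for HBG2 and −0.24 for the gamma sum. That of the HBA sum passed without 6 h and 32 h, at −0.32.

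The 24 h amplitude of HBA2 and HBZ did not pass with a period of 20 h (0.16 and 0.18). Nor did it pass without a term for 16 h and 18 h (0.30 and 0.29). By JTK, which has no such term either, it did not pass (a statistic of 86 and 74). Without 6 h and 32 h it passed at 0.10 for HBE1, 0.17 for HBG1, 0.21 for HBG2 and 0.20 for the gamma sum, and in the cleaned table, on its own scale, at 0.72, 0.85 and 0.96 for HBE1, HBG1 and HBG2. With genes of at least 10 FPKM HBG2 passed, at 0.34. The cause was not tested. Over all genes, the filter at 10 FPKM, which tests fewer genes, gave 1900 lower at 16 h and 18 h and 1242 rising, and periods of 20 h and 28 h gave 656 and 710 with a 24 h component, against 1987. With 1 library per time point no replicate could be left out.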

Other observations

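The genes whose course was most like that of HBA1 alone, a measure chosen after its values were seen, were PFN1, HMGA1, AKT1S1, CLPP and RPS28, with Pearson's r of 0.95 to 0.98 over 22 time points (16 h and 18 h left out). Of these, PFN1, which encodes the actin-binding protein profilin, was at 677 FPKM at 16 h and 762 at 18 h, above its range of 248 to 576 elsewhere, and CLPP, a mitochondrial protease subunit gene, was at 90.9 and 93.4, above 39.1 to 87.5. HMGA1 was at 986 and 896 FPKM, within its range of 533 to 1104, and AKT1S1 and RPS28 were also within theirs. The genes most like HBA2 alone were PDCD2, LAGE3, GNB2, ADISSP and LSM2, and LAGE3 was at 23.3 FPKM at 18 h, below its range of 52.3 to 103 elsewhere. No gene was shared by these 2 lists of 5 out of 7163 genes, which by itself does not set HBA1 and HBA2 apart. The lists are descriptions over 1 library per time point, and what the genes of a list have in common was not tested.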
